A study of Mus musculus with 21 samples.

Results

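Rab44, Rab3d, Nin, Ikbke, Itih5, Mcf2l, Tmx4 and Rps6ka2 are 8 of the 10 genes with the smallest p-values for a departure from additive effects of Asxl1 loss and Jak2V617F. They were taken from 16262 genes tested, of 54532 in the count table, and Erg, which ranked first, was left out. The departure is the interaction of both lesions on the log2 scale, which is the effect of Asxl1 loss on the Jak2V617F background minus its effect on the WT background. The genes were chosen by the measured interaction, so the interaction and the differences it is built from are descriptions here, with no test. RNA was sequenced from bone marrow cells of C57BL/6 mice, flushed from femur and tibia and enriched on magnetic beads for c-kit (CD117), the receptor of stem cell factor found on blood progenitors. The groups were Asxl1-/-Jak2V617F (3 libraries), Jak2V617F (3 libraries), Asxl1-/- (2 libraries) and WT (3 libraries). The age of the mice, the way in which each allele was brought in, the cells that carry it, and whether a library came from 1 animal or a pool were not given in the sources used here.

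Asxl1 is a chromatin protein that partners the deubiquitinase BAP1, and Jak2V617F is a kinase form with constant activity that drives myeloproliferative neoplasms. Lesions of both genes occur together in some human myeloid neoplasms. The 8 genes belong to no shared pathway. Rab44 and Rab3d are Rab GTPases, switches that guide vesicles and granules to their target membranes, and both are known from granule release in rodent mast cells. Nin encodes ninein, which anchors microtubules at the centrosome. Ikbke encodes IKK-epsilon, a kinase that works beside TBK1 in antiviral interferon induction, and Rps6ka2 encodes RSK3, a kinase activated by ERK. Mcf2l encodes an exchange factor of the Dbl family. Itih5 encodes a heavy chain of the inter-alpha-trypsin inhibitor family, whose members bind hyaluronan. Tmx4 encodes a thioredoxin-related membrane protein of the endoplasmic reticulum.

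The genes lie on 6 chromosomes (mm10, positions as deposited). Rab44 (ENSMUSG00000064147) lies on chromosome 17 from 29114145 to 29148980, plus strand, and Rps6ka2 (ENSMUSG00000023809) on the same chromosome from 7170115 to 7303315, plus strand. Rab3d (ENSMUSG00000019066) lies on chromosome 9 from 21907491 to 21918192, minus strand. Nin (ENSMUSG00000021068) lies on chromosome 12 from 70011435 to 70113717, minus strand. Ikbke (ENSMUSG00000042349) lies on chromosome 1 from 131254343 to 131279606, minus strand. Itih5 (ENSMUSG00000025780) lies on chromosome 2 from 10153571 to 10256529, plus strand, and Tmx4 (ENSMUSG00000034723) on the same chromosome from 134594185 to 134644145, minus strand. Mcf2l (ENSMUSG00000031442) lies on chromosome 8 from 12873806 to 13020905, plus strand.

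Since the genes were low in the same group of libraries, their promoters were searched for motifs of 6 factor families that act in blood cells. RefSeq windows (GRCm38.p6) of 300 bases, with 250 bases before and 50 bases after a start, were found for 7 of the 8 genes, 14 windows in all. The motifs, read on both strands, were CCGGAAG for ETS factors, AGATAA for GATA factors, TGTGGT for RUNX factors, TTCNNNGAA for STAT factors, TGANTCA for AP-1 and TTGCNNAA for C/EBP. Mcf2l and Nin had several windows each, and Rab44 had none. No motif was found in more than 1 of the 14 windows. The windows below are shown because they hold 4 of the 6 motifs, in capitals, while the Rab3d window holds none. They are Ikbke at chr1:131279514-131279813 on the minus strand with an AP-1 match, and Tmx4 at chr2:134644072-134644371 on the minus strand. The Tmx4 window has a C/EBP match on its other strand before a GATA match on the strand printed. The next is the most upstream Mcf2l window at chr8:12873556-12873855 on the plus strand, with an ETS match on its other strand. The last is Rab3d at chr9:21918134-21918433 on the minus strand. All are written 5′ to 3′ in the sense of the gene, and no match overlaps another.
Ikbke: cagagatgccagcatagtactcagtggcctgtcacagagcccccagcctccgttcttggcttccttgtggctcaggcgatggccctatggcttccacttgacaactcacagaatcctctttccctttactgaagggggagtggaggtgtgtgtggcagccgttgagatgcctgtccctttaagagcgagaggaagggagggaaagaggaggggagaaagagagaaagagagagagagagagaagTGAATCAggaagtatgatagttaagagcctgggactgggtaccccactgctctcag
Tmx4: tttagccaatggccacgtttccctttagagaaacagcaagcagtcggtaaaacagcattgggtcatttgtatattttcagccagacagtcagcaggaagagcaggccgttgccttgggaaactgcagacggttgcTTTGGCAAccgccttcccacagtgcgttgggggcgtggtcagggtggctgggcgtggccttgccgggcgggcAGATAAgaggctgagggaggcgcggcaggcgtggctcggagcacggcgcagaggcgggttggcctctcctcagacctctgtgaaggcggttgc
Mcf2l: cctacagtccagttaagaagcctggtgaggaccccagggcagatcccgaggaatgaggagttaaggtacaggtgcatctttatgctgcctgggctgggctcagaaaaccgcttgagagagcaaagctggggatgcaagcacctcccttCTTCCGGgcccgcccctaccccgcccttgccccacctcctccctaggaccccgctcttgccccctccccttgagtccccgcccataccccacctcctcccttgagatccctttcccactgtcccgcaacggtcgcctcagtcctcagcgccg
Rab3d: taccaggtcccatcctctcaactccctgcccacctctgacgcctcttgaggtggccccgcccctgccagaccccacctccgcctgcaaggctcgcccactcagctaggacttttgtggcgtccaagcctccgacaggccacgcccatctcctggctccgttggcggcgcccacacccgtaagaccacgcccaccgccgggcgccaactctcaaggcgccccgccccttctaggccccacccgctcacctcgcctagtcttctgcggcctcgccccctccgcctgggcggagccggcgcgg
The RUNX and STAT matches lay together in another Mcf2l window. Among all 32851 windows of the RefSeq table, the share that holds the motif was 8.86% for ETS, 11.2% for GATA, 16.8% for RUNX, 8.3% for STAT, 7.81% for AP-1 and 10.8% for C/EBP. The 14 windows therefore share no motif of these 6. The windows printed held 54.0% G and C in Ikbke, 60.3% in Tmx4, 63.0% in Mcf2l and 71.0% in Rab3d, against a median of 52.7% over all windows.

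Total counts were 16198011 to 19196283 per library. Asxl1 itself was at 96.4 ± 3.61 CPM (reads of a gene relative to its library's total, scaled by TMM factors) in Asxl1-/-Jak2V617F and 93.0 ± 5.66 CPM in Asxl1-/-, against 157 ± 34.4 CPM in Jak2V617F and 162 ± 1.41 CPM in WT (SD, n = 3, 2, 3 and 3). Kit, the gene of the sorting antigen, was between 219 and 338 CPM in every library. The Jak2V617F libraries stood apart from the rest in cell type markers. In Jak2V617F against WT, 29.2% of all genes tested were called lower and 24.4% higher, beside which the marker counts below stand. The sum of 7 progenitor genes, Kit among them, was 943 to 1130 CPM in Asxl1-/-Jak2V617F and 735 to 845 CPM in Jak2V617F. It was 1170 to 1200 CPM in Asxl1-/- and 1050 to 1180 CPM in WT. Of the 7, 4 were lower and 1 higher in Jak2V617F than in WT. The summed level of 7 primary granule genes was 11600 to 21500 CPM in Asxl1-/-Jak2V617F, 703 to 1250 CPM in Jak2V617F, 15000 to 16100 CPM in Asxl1-/- and 10100 to 12600 CPM in WT, and all 7 fell in Jak2V617F against WT. The sum of 10 late neutrophil genes, all lower in Jak2V617F, was 24800 to 31000 CPM, 1900 to 5110 CPM, 53100 to 55500 CPM and 34000 to 51300 CPM in the same order of groups. The sum of 14 erythroid genes, of which 12 were higher in Jak2V617F than in WT, was 2230 to 3780 CPM in Asxl1-/-Jak2V617F, 6640 to 8440 CPM in Jak2V617F, 2660 to 3070 CPM in Asxl1-/- and 1690 to 3000 CPM in WT. No gene of the primary granule, late neutrophil and erythroid lists was at 0 throughout a group. Mast cells are among the cells in which Rab44 and Rab3d were studied. Mast cell and basophil genes summed to 314 to 374 CPM in Asxl1-/-Jak2V617F and 75.1 to 109 CPM in Jak2V617F. In Asxl1-/- and WT the sums were 537 to 548 CPM and 354 to 476 CPM, and 7 of 8 tested were lower in Jak2V617F than in WT. In bulk RNA, fewer cells of a type and less RNA per cell cannot be told apart, and the part of these markers in the results below was not tested. By Xist and Y-linked genes, both Asxl1-/- libraries and Jak2V617F 2 were male and the other 8 libraries female, so comparisons with Asxl1-/- carry sex as well, and a term for sex in the fit rests on Jak2V617F 2.

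All 8 genes had low levels in Jak2V617F and higher levels when Asxl1 was lost as well, with means at 72% to 105% of WT. In Rab44, Rab3d and Mcf2l all Asxl1-/-Jak2V617F libraries still lay below all WT libraries, as for 19.4% of all genes tested. In each gene the 3 Jak2V617F libraries lay below all 8 other libraries, as they did for 21.6% of all genes tested. The choice of genes by interaction favours low levels in Jak2V617F, so this too is only a description. Rab44, the gene of highest level per length, was at 480.9, 471.9 and 403.7 CPM in Asxl1-/-Jak2V617F, at 62.4, 46.2 and 54.8 CPM in Jak2V617F, at 348 and 354 CPM in Asxl1-/- and at 535.6, 685.5 and 637.3 CPM in WT. Every pair of groups was separate, in the order WT, Asxl1-/-Jak2V617F, Asxl1-/- and Jak2V617F from high to low. Per kilobase of transcript, mean Rab44 was 89.3 CPM in Asxl1-/-Jak2V617F, 10.8 CPM in Jak2V617F, 69.4 CPM in Asxl1-/- and 122 CPM in WT. On the log2 scale Rab44 differed by 3.05 ± 0.13 (SE) between Asxl1-/-Jak2V617F and Jak2V617F, by -3.51 ± 0.14 between Jak2V617F and WT, and by -0.82 ± 0.14 between Asxl1-/- and WT. The interaction was 3.87 ± 0.20. Mean WT levels of the other genes per kilobase were 36.2 CPM in Rab3d, 30.8 CPM in Nin, 20.5 CPM in Tmx4, 11.5 CPM in Ikbke, 6.17 CPM in Rps6ka2, 5.87 CPM in Itih5 and 3.02 CPM in Mcf2l.

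Rab3d, the other Rab GTPase, was at 133, 131 and 109.5 CPM in Asxl1-/-Jak2V617F, at 17.3, 18.5 and 13.1 CPM in Jak2V617F, at 160.7 and 153.9 CPM in Asxl1-/- and at 145, 155 and 156 CPM in WT. Its Asxl1-/- libraries overlapped those of WT, which no other of the 8 genes showed. Rab3d differed by 2.93 ± 0.13 on the log2 scale between Asxl1-/-Jak2V617F and Jak2V617F, by -3.22 ± 0.13 between Jak2V617F and WT, and by 0.049 ± 0.13 between Asxl1-/- and WT. The interaction of 2.88 ± 0.18 was therefore close to the effect of Asxl1 loss on the Jak2V617F background alone.

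Nin, the centrosomal gene and the longest of the 8 in exons, was at 504, 544 and 468 CPM in Asxl1-/-Jak2V617F, at 141.5, 127 and 120.2 CPM in Jak2V617F, at 328 and 337 CPM in Asxl1-/- and at 472, 590.8 and 510.3 CPM in WT. The libraries of Asxl1-/-Jak2V617F and WT overlapped, those of Asxl1-/- lay below both, and those of Jak2V617F were lowest. Nin differed by 1.96 ± 0.10 on the log2 scale between Asxl1-/-Jak2V617F and Jak2V617F, by -2.02 ± 0.10 between Jak2V617F and WT, and by -0.66 ± 0.11 between Asxl1-/- and WT, with an interaction of 2.62 ± 0.16.

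The kinase gene Ikbke was at 118, 106 and 87.7 CPM in Asxl1-/-Jak2V617F, at 14.3, 19.1 and 14.5 CPM in Jak2V617F, at 58.8 and 62.2 CPM in Asxl1-/- and at 92.7, 112.5 and 105 CPM in WT. Its Asxl1-/-Jak2V617F and WT libraries overlapped, with Asxl1-/- between them and Jak2V617F. The log2 differences were 2.70 ± 0.14 for Asxl1-/-Jak2V617F against Jak2V617F, -2.69 ± 0.14 for Jak2V617F against WT and -0.77 ± 0.15 for Asxl1-/- against WT, with an interaction of 3.47 ± 0.21. The other kinase gene, Rps6ka2, was at 64.0, 62.9 and 50.02 CPM in Asxl1-/-Jak2V617F, at 6.01, 8.49 and 7.65 CPM in Jak2V617F, at 55.4 and 50.4 CPM in Asxl1-/- and at 59.5, 63.2 and 62.0 CPM in WT. Here the Asxl1-/-Jak2V617F libraries overlapped both WT and Asxl1-/-, and the Asxl1-/- libraries lay just below WT. Rps6ka2 differed by 3.0 ± 0.14 on the log2 scale between Asxl1-/-Jak2V617F and Jak2V617F, by -3.06 ± 0.14 between Jak2V617F and WT, and by -0.22 ± 0.14 between Asxl1-/- and WT.

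Mcf2l, the exchange factor, had the lowest level per length of the 8 genes and the largest interaction, 4.31 ± 0.26. It was at 33.2, 26.2 and 24.0 CPM in Asxl1-/-Jak2V617F, at 2.74, 2.26 and 2.16 CPM in Jak2V617F, at 24.1 and 21.0 CPM in Asxl1-/- and at 35.6, 46.0 and 34.1 CPM in WT. The Asxl1-/-Jak2V617F libraries lay below those of WT and overlapped those of Asxl1-/-, and Jak2V617F was far below all. Mcf2l differed by 3.54 ± 0.18 on the log2 scale between Asxl1-/-Jak2V617F and Jak2V617F and by -4.01 ± 0.19 between Jak2V617F and WT. Itih5, the hyaluronan-binding family member, was at 44.5, 35.8 and 36.7 CPM in Asxl1-/-Jak2V617F, at 3.70, 4.46 and 5.43 CPM in Jak2V617F, at 32.9 and 30.1 CPM in Asxl1-/- and at 42.6, 49.9 and 46.7 CPM in WT. Its Asxl1-/-Jak2V617F and WT libraries overlapped in part. Itih5 differed by 3.10 ± 0.15 on the log2 scale between Asxl1-/-Jak2V617F and Jak2V617F and by -3.35 ± 0.15 between Jak2V617F and WT, with an interaction of 3.66 ± 0.22.

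Tmx4, the thioredoxin-related gene, was at 237, 253 and 214 CPM in Asxl1-/-Jak2V617F, at 66.6, 65.6 and 53.0 CPM in Jak2V617F, at 167 and 168 CPM in Asxl1-/- and at 222, 231 and 218 CPM in WT. Asxl1-/-Jak2V617F and WT overlapped, and the Asxl1-/- libraries lay below both. Tmx4 had the smallest interaction of the 8 genes, 2.34 ± 0.15, with a log2 difference of 1.93 ± 0.098 between Asxl1-/-Jak2V617F and Jak2V617F and of -1.86 ± 0.098 between Jak2V617F and WT.

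**Figure D1:**
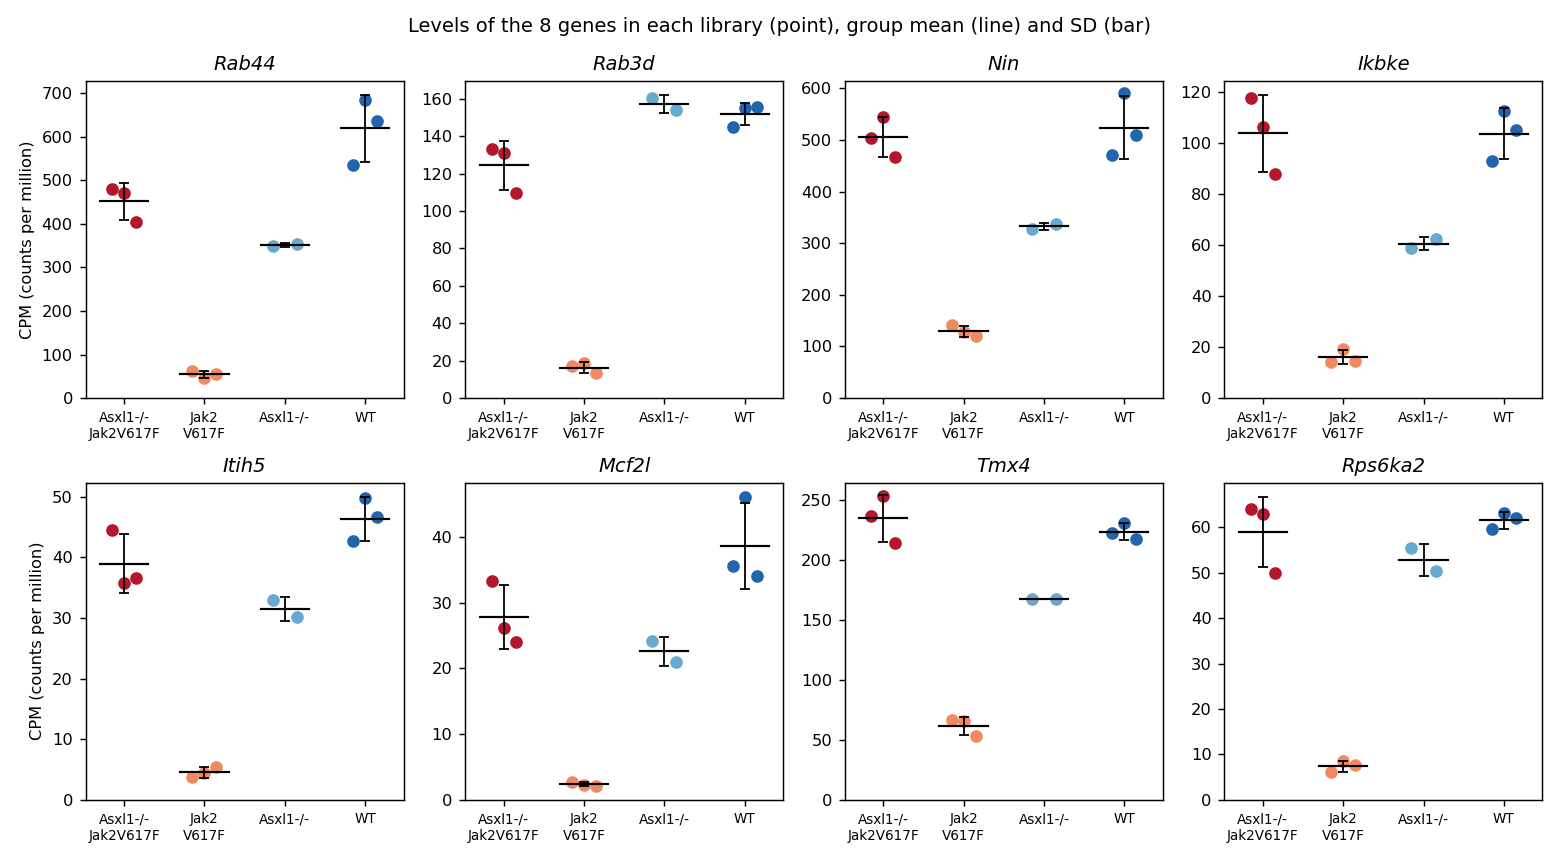
Level of each of the 8 genes in every library, in CPM on a linear scale, with 1 point per library. A line marks each group mean and a bar its SD. In every panel the 3 Jak2V617F libraries lie below the 8 libraries of the other groups. Asxl1-/-Jak2V617F means lie between 72% and 105% of the WT mean.

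Some of these counts may include reads of other genes, since the strand setting of the counting is not given. Gm15347, antisense to Mcf2l, was at 1.56 CPM in Asxl1-/-Jak2V617F, 0.225 CPM in Jak2V617F, 0.408 CPM in Asxl1-/- and 3.38 CPM in WT, and Gm28913, antisense to Ikbke, at 1.47, 0.295, 1.11 and 2.35 CPM in the same order. The pseudogene Rpl35a-ps3, on the other strand of Rab44, was at 3.89, 1.3, 4.83 and 4.61 CPM. Without strand, reads of such partners cannot be told apart from those of the gene they overlap.

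If both lesions acted independently, each multiplying the level by the factor it has alone, the level in Asxl1-/-Jak2V617F would be the product of both factors and the WT level. For Rab44 that product was 30.9 CPM, and 452 CPM was measured, a ratio of 14.6. The ratio was 7.38 for Rab3d (125 CPM measured, 16.9 CPM as the product), 6.15 for Nin, 11.1 for Ikbke, 12.7 for Itih5, 19.9 for Mcf2l (27.8 CPM measured, 1.4 CPM as the product), 5.08 for Tmx4 and 9.31 for Rps6ka2. The choice of genes fixed that these ratios are far from 1. Asxl1-/-Jak2V617F means lay between 72% and 105% of WT. The Jak2V617F mean was 6.18% of WT in Mcf2l, 8.79% in Rab44, 9.77% in Itih5, 10.7% in Rab3d, 12% in Rps6ka2, 15.4% in Ikbke, 24.7% in Nin and 27.6% in Tmx4. The Asxl1-/- mean ran between 56.7% of WT in Rab44 and 103% in Rab3d. Between Asxl1-/-Jak2V617F and Asxl1-/- the log2 difference was 0.78 ± 0.15 in Ikbke, 0.60 ± 0.11 in Nin, 0.49 ± 0.11 in Tmx4, 0.36 ± 0.14 in Rab44, 0.31 ± 0.15 in Itih5, 0.30 ± 0.18 in Mcf2l, 0.16 ± 0.14 in Rps6ka2 and -0.34 ± 0.13 in Rab3d. All Asxl1-/- libraries were below all WT libraries for 7 of the 8 genes, which was so for 28.5% of all genes. A level in Asxl1-/- below that in WT raises the interaction. The choice of genes therefore favours this count, which is only a description. Both Asxl1-/- libraries are male and all WT libraries female, and with a term for sex the log2 difference was -0.47 ± 0.21 in Rab44, -1.18 ± 0.22 in Ikbke, -0.53 ± 0.24 in Rps6ka2 and -0.23 ± 0.21 in Rab3d. In the same fit the interaction was 3.42 in Rab44, 3.26 in Rab3d, 4.03 in Ikbke, 2.52 in Tmx4 and 3.64 in Rps6ka2.

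**Figure D2:**
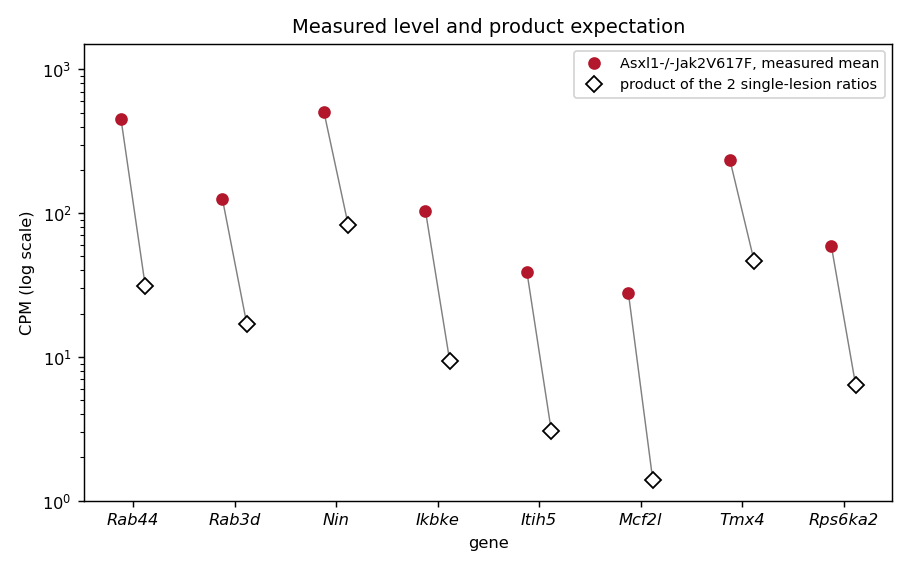
Mean level of each gene in Asxl1-/-Jak2V617F as measured, beside the product of the factors of Jak2V617F alone and Asxl1-/- alone with the WT mean, in CPM on a log scale. The measured level exceeds the product by 5.08 times in Tmx4 and by 19.9 times in Mcf2l, with the other genes between.

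At the edge of the rule, Rps6ka2 ranked 10 by interaction p with a log2 interaction of 3.22 ± 0.20. The genes ranked 11 and 12, just outside, were Pimreg with 2.83 ± 0.18 and AC160637.1 with 3.62 ± 0.24. Erg, at rank 1, had 2.84 ± 0.14, with 67.9 ± 5.04 CPM in Asxl1-/-Jak2V617F, 10.8 ± 0.652 CPM in Jak2V617F, 79.3 ± 5.90 CPM in Asxl1-/- and 90.1 ± 4.41 CPM in WT (SD, n = 3, 3, 2 and 3). An interaction was called for 41.6% of all genes tested, so the 8 genes are the end of a wide distribution.

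The comparison of Asxl1-/-Jak2V617F with WT was the one that could be tested, because both groups enter the interaction with the same sign and with 3 libraries each, so that their difference does not build it. The libraries and the estimate of spread are shared with the rule, so the test is not wholly independent of it. Choice by small p favours genes with a low estimate of spread. The p-values below may therefore be too small and the intervals too narrow. Rab44 alone of the 8 genes passed edgeR's quasi-likelihood test, with 452 ± 42.2 CPM in Asxl1-/-Jak2V617F and 619.5 ± 76.5 CPM in WT (SD, n = 3 each). The log2 difference was -0.45 ± 0.12 (edgeR adjusted p = 0.0312), which puts the level in Asxl1-/-Jak2V617F at 73% of WT with a 95% interval of 60.7% to 87.8%. Of all genes tested, 15.1% passed in this comparison, with 6.76% of all genes called lower, so 1 call among 8 genes is near the background. Leaving out any 1 of the Asxl1-/-Jak2V617F libraries ended this call in edgeR (adjusted p = 0.0585 for 1, 0.0836 for 2 and 0.071 for 3). The same held without Asxl1-/- 1 (adjusted p = 0.0516) or 2 (adjusted p = 0.0512), without WT 2 or 3 (adjusted p = 0.113 and 0.0956) and when only the 6 libraries of both groups were fitted (adjusted p = 0.058).

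The other 7 genes did not pass, and their intervals show how far each could lie from WT. Mcf2l was at 72.1% of WT in Asxl1-/-Jak2V617F, with an interval of 56.7% to 91.5% (edgeR adjusted p = 0.0626), and Rab3d at 82%, with an interval of 69% to 97.4% (edgeR adjusted p = 0.104). Both had all Asxl1-/-Jak2V617F libraries below all WT libraries, as had Rab44, against 19.4% of all genes tested. Mcf2l passed under DESeq2 (adjusted p = 0.0496) and in edgeR without Asxl1-/-Jak2V617F 1 (adjusted p = 0.0492), and Rab3d in edgeR without Jak2V617F 3 (adjusted p = 0.0498). Itih5 was at 84% of WT (68.4% to 103%) and Nin at 96.4% (82.9% to 112%). Rps6ka2 was at 95.8% (79.1% to 116%), Ikbke at 100% (82.3% to 122%) and Tmx4 at 105% (91% to 121%). The intervals of these 5 genes include the WT level, which does not show that the genes were alike in both groups.

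**Figure D3:**
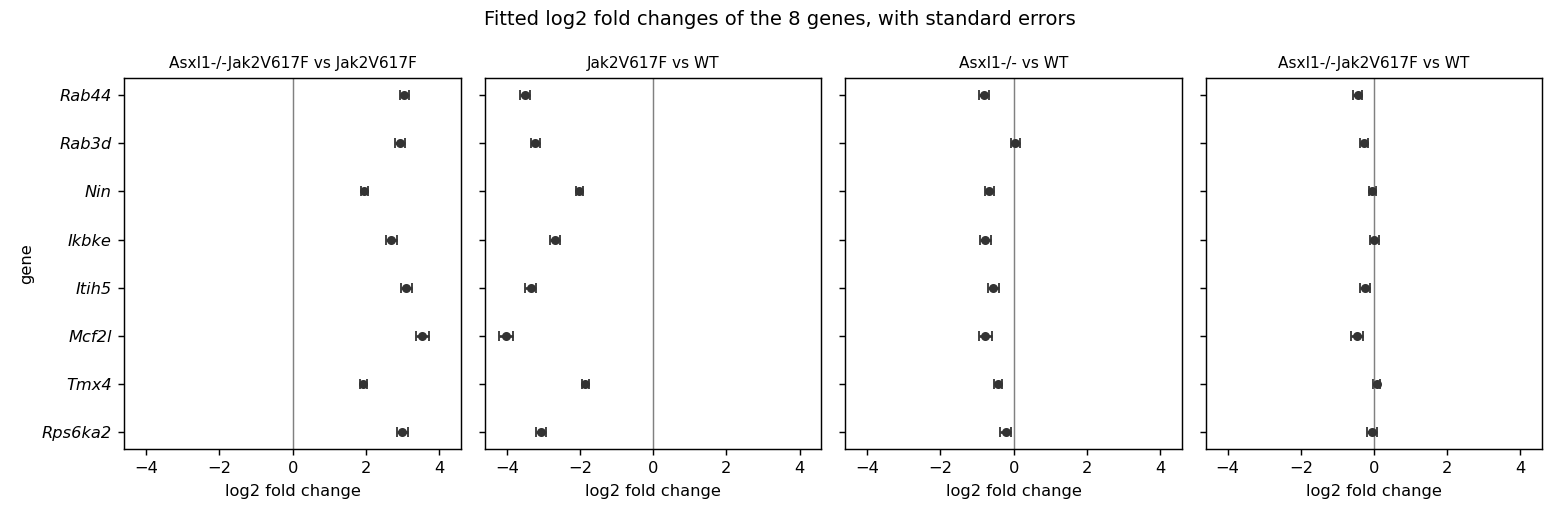
Log2 difference of each gene in Asxl1-/-Jak2V617F against Jak2V617F, in Jak2V617F against WT, in Asxl1-/- against WT and in Asxl1-/-Jak2V617F against WT, with bars of 1 standard error. The differences that involve Jak2V617F alone are 1.86 or larger in size for all 8 genes, and those of Asxl1-/-Jak2V617F against WT lie between -0.47 and 0.069.

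The closest relatives of these genes differed in pattern. Cracr2a, a large Rab GTPase with EF hands like Rab44, was low in Jak2V617F too. It was at 45.7 ± 2.49 CPM in Asxl1-/-Jak2V617F, 14.3 ± 1.78 CPM in Jak2V617F, 35.7 ± 5.21 CPM in Asxl1-/- and 64.4 ± 4.61 CPM in WT (SD, n = 3, 3, 2 and 3). It rose by 1.68 ± 0.12 (log2) in Asxl1-/-Jak2V617F against Jak2V617F (edgeR adjusted p = 1.04e-06) and was lower in Asxl1-/-Jak2V617F than in WT by edgeR (-0.50 ± 0.11, adjusted p = 0.0189). Rab3a, the main Rab3 of nerve terminals, was at 2.6 CPM in Asxl1-/-Jak2V617F, against 3.99 CPM in Jak2V617F, and fell by 0.61 ± 0.23 on that scale in this comparison (edgeR adjusted p = 0.0497). Rab3b and Rab3c had too few reads to test. Ninl, the ninein-like partner of Nin at the centrosome, ran the other way, with 11.02 ± 4.22 CPM in Asxl1-/-Jak2V617F, 45.9 ± 5.29 CPM in Jak2V617F, 7.68 ± 1.46 CPM in Asxl1-/- and 10.03 ± 2.46 CPM in WT (SD, n = 3, 3, 2 and 3). It rose by 2.19 ± 0.26 in Jak2V617F against WT (edgeR adjusted p = 4.31e-05) and fell by 2.06 ± 0.26 in Asxl1-/-Jak2V617F against Jak2V617F (edgeR adjusted p = 8.79e-05).

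Among the IKK kinases, Tbk1, the nearest relative of Ikbke, was at 72.4 ± 2.29 CPM in Asxl1-/-Jak2V617F, 61.1 ± 11 CPM in Jak2V617F and 80.4 ± 7.29 CPM in WT (SD, n = 3 each), and fell by 0.40 ± 0.12 in Jak2V617F against WT (edgeR adjusted p = 0.0169). Ikbkb, the main kinase of the canonical NF-kB pathway, fell by 0.23 ± 0.08 (edgeR adjusted p = 0.0233), and Chuk, the kinase of the alternative pathway, rose by 0.29 ± 0.08 (edgeR adjusted p = 0.00775) in the same comparison. Of the TMX proteins, Tmx3 was at 100 ± 2.33 CPM in Asxl1-/-Jak2V617F, 65.5 ± 4.41 CPM in Jak2V617F and 103 ± 4.83 CPM in WT (SD, n = 3 each), and fell by 0.64 ± 0.07 in Jak2V617F against WT (edgeR adjusted p = 2.14e-05). Tmx1 and Tmx2 did not pass in that comparison (edgeR adjusted p = 0.0987 and 0.549). Of the RSK genes, Rps6ka1 was at 407 ± 68.5 CPM in Asxl1-/-Jak2V617F, 109 ± 23.1 CPM in Jak2V617F and 382 ± 28.9 CPM in WT (SD, n = 3 each), and fell by 1.80 ± 0.16 in Jak2V617F against WT (edgeR adjusted p = 4.54e-06). Rps6ka3, which encodes RSK2, was at 173 ± 36.1 CPM in Asxl1-/-Jak2V617F, 98.8 ± 0.241 CPM in Jak2V617F and 119.03 ± 7.08 CPM in WT (SD, n = 3 each), and was higher in Asxl1-/-Jak2V617F than in WT by edgeR (0.54 ± 0.12, adjusted p = 0.0182). The MSK kinase genes moved in opposite directions in Jak2V617F against WT, where Rps6ka5 fell by 0.80 ± 0.13 (edgeR adjusted p = 0.000346) and Rps6ka4 rose by 0.42 ± 0.12 (edgeR adjusted p = 0.0113). Itih1 to Itih4, the other heavy chains looked up, and Mcf2, the gene closest to Mcf2l by name, had too few reads to test, so Itih5 and Mcf2l have no relative here to be set against.

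**Figure D4:**
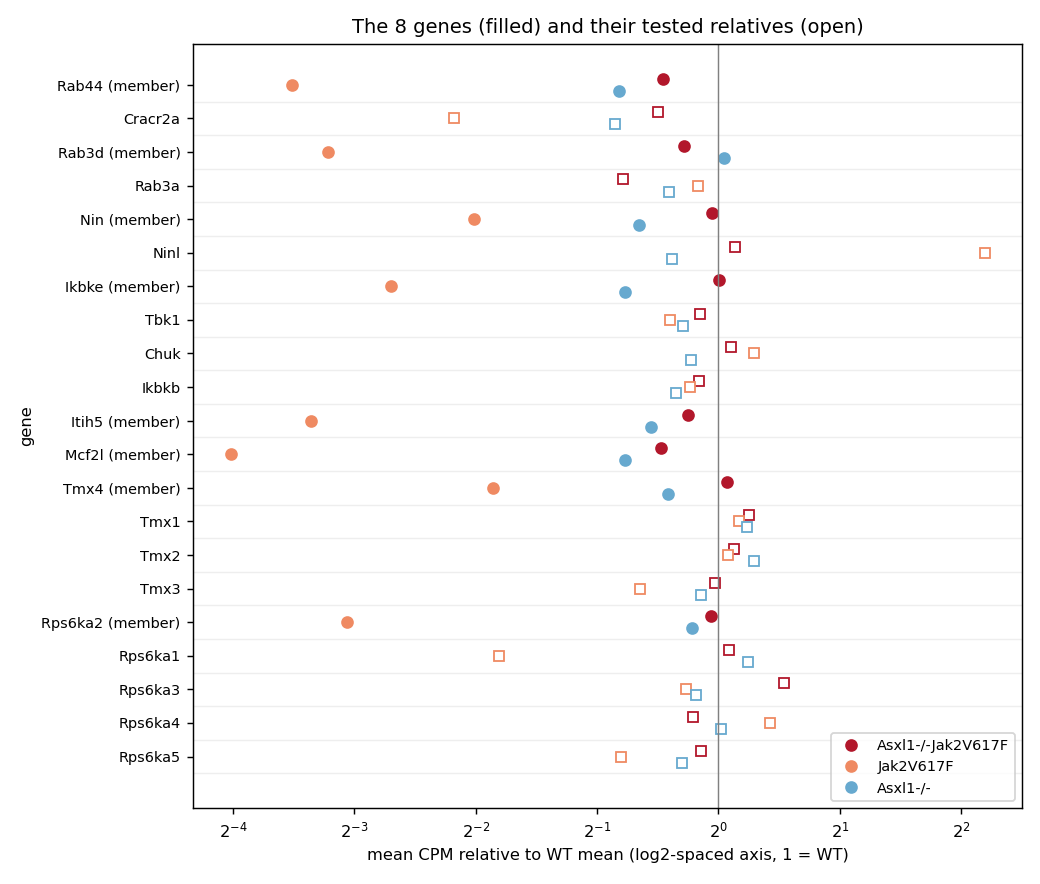
Mean CPM of the 8 genes (filled circles, marked as members) and of their tested relatives (open squares) in Asxl1-/-Jak2V617F, Jak2V617F and Asxl1-/-, relative to the WT mean at 1, on a log2-spaced axis. The Jak2V617F point is the lowest for all 8 genes, and among the relatives it lies furthest below 1 for Cracr2a and Rps6ka1, while for Ninl it lies far above 1.

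Wider lists of 6 pathways were counted in Asxl1-/-Jak2V617F against Jak2V617F, where 24.5% of all genes tested were called higher and 19.8% lower, and in Jak2V617F against WT, where 24.4% were called higher and 29.2% lower. Both comparisons share the Jak2V617F libraries. The lists exclude the 8 genes. Of 20 genes of the TMX and protein disulfide isomerase family, 14 were higher in Asxl1-/-Jak2V617F than in Jak2V617F by edgeR and the other 6 did not pass, with a median log2 difference of 0.90 against -0.01 over all genes. In Jak2V617F against WT, 12 of the 20 were lower and 2 higher. In the other lists these counts were 15 lower and 4 higher of 31 Rab and granule secretion genes, 11 and 5 of 31 centrosome genes, 9 and 5 of 24 IKK and TBK1 genes, 9 and 4 of 24 RSK and ERK genes, and 6 and 2 of 12 hyaluronan genes. The isomerase genes also differed from WT in Asxl1-/-Jak2V617F: 11 of the 20 were higher, where 8.30% of all genes were, with a median of 0.36, and 5 of the 20 when WT 2 was left out. Pdia6, an isomerase of the endoplasmic reticulum, was at 537 ± 84.0 CPM in Asxl1-/-Jak2V617F, 189 ± 16.2 CPM in Jak2V617F, 478 ± 25.8 CPM in Asxl1-/- and 327 ± 7.85 CPM in WT (SD, n = 3, 3, 2 and 3). It rose by 0.71 ± 0.11 in Asxl1-/-Jak2V617F against WT (edgeR adjusted p = 0.00683). P4hb, the founding member of the family, was at 1150 ± 179 CPM in Asxl1-/-Jak2V617F and 748 ± 53.6 CPM in WT (SD, n = 3 each), a rise of 0.62 ± 0.11 (edgeR adjusted p = 0.01). Tmx4 itself did not pass there, as given above. Ero1l, the oxidase that recharges these isomerases, and Txndc12 rose by 1.52 ± 0.11 and 1.54 ± 0.12 in Asxl1-/-Jak2V617F against Jak2V617F. In Asxl1-/- against WT, 9 of the 20 were higher, where 11.3% of all genes were. Both Asxl1-/- libraries are male and all WT libraries female, and this count of 9 was not repeated with a term for sex. Over all genes, that term left 502 calls in this comparison, against 3664 without it.

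Of 31 Rab and granule secretion genes, 16 were higher and 4 lower in Asxl1-/-Jak2V617F than in Jak2V617F, with a median log2 difference of 0.21. Rab27a, the Rab that docks lysosome-related granules, was at 199 ± 44.6 CPM in Asxl1-/-Jak2V617F, 23.4 ± 3.14 CPM in Jak2V617F, 205 ± 1.58 CPM in Asxl1-/- and 191 ± 19.4 CPM in WT (SD, n = 3, 3, 2 and 3). It rose by 3.09 ± 0.17 in Asxl1-/-Jak2V617F against Jak2V617F (edgeR adjusted p = 2.93e-07). Its effector Sytl1 rose by 2.14 ± 0.23, and Rab32, which serves organelles related to lysosomes, by 1.98 ± 0.18. Of 31 centrosome genes, 9 were higher and 8 lower in this comparison, close to the shares over all genes, with a median of 0.01. Cep128, a protein of the mother centriole, was at 118 ± 9.28 CPM in Asxl1-/-Jak2V617F, 61.4 ± 2.24 CPM in Jak2V617F, 91.9 ± 0.968 CPM in Asxl1-/- and 115 ± 7.45 CPM in WT (SD, n = 3, 3, 2 and 3). It rose by 0.94 ± 0.08 in Asxl1-/-Jak2V617F against Jak2V617F (edgeR adjusted p = 3.6e-06), and Dctn1, a dynactin subunit, rose by 0.98 ± 0.07. In Asxl1-/- against WT, 14 of the 31 were lower by edgeR, against 11.2% of all genes called lower, with a median of -0.38. With the term for sex 2 of the 31 were lower, without Asxl1-/- 1 there were 5 called and without Asxl1-/- 2 there were 6.

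Of 24 genes of IKK and TBK1 signalling, 6 were higher and 1 lower in Asxl1-/-Jak2V617F than in Jak2V617F, with a median log2 difference of 0.12. Tbkbp1, a TBK1-binding adaptor, was at 44.7 ± 11.8 CPM in Asxl1-/-Jak2V617F, against 8.91 ± 2.56 CPM in Jak2V617F (SD, n = 3 each), a rise of 2.32 ± 0.23 (edgeR adjusted p = 1.36e-05). Tmem173, which encodes STING, rose by 1.55 ± 0.20, and Relb, the NF-kB subunit of the alternative pathway and abundant in dendritic cells, fell by 1.89 ± 0.30. The summed dendritic cell and MHC class II markers were 330 to 511 CPM in Asxl1-/-Jak2V617F, 2710 to 3740 CPM in Jak2V617F, 403 to 532 CPM in Asxl1-/- and 242 to 442 CPM in WT, and 8 of 9 fell in Asxl1-/-Jak2V617F against Jak2V617F. Their part in the Relb result was not tested. Of 24 genes of RSK and ERK signalling, 9 were higher and 3 lower, with a median of 0.14. Spry2 and Dusp6, feedback inhibitors of ERK signalling, rose by 1.84 ± 0.18 and 1.51 ± 0.16, and Mapk3, which encodes ERK1, by 1.5 ± 0.15. Of 22 genes of the inter-alpha-trypsin inhibitor and hyaluronan list, 12 could be tested, and 6 were higher and 3 lower, with a median of 0.24. Cd44, the hyaluronan receptor, was at 263 ± 19.2 CPM in Asxl1-/-Jak2V617F, against 176 ± 3.44 CPM in Jak2V617F (SD, n = 3 each), a rise of 0.57 ± 0.07 (edgeR adjusted p = 6.76e-05). Stab1, a scavenger receptor of macrophages, rose by 2.40 ± 0.47 at a low level, with 3.10 CPM in Asxl1-/-Jak2V617F against 0.582 CPM in Jak2V617F, and Hyal2, a hyaluronidase, fell by 1.26 ± 0.18.

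**Figure D5:**
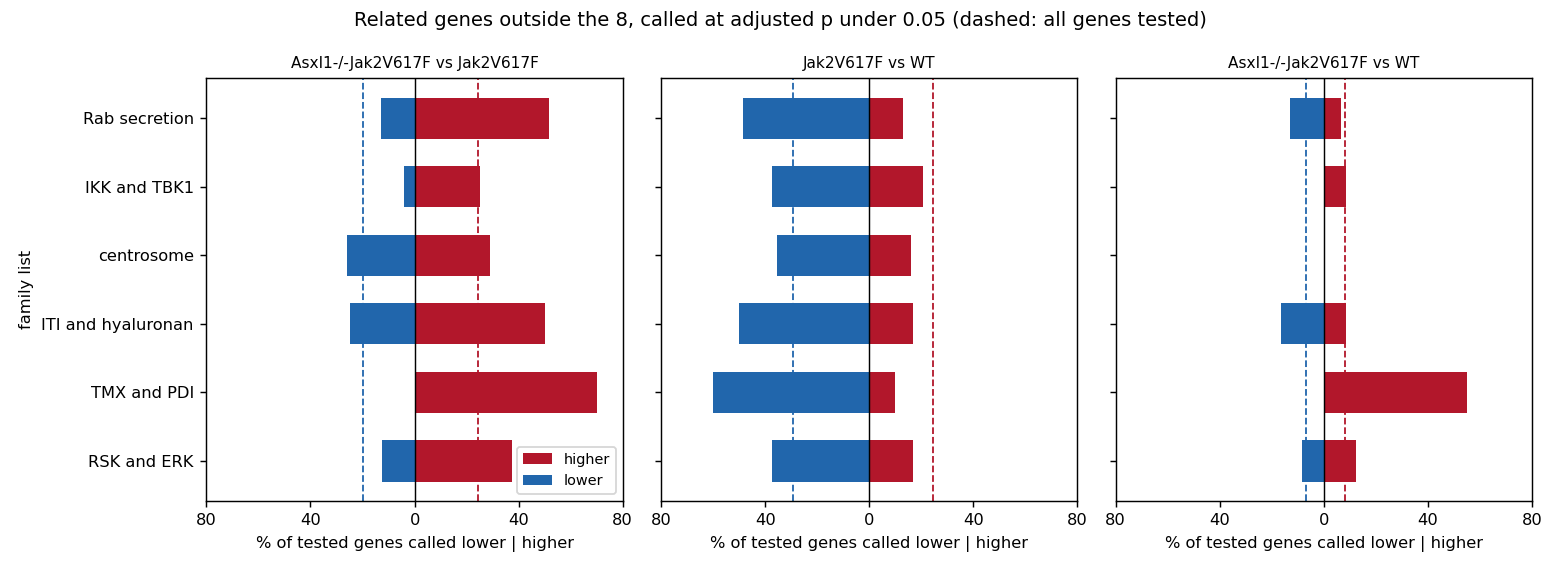
Share of the tested genes of each of the 6 lists, in percent, called higher (red, right) and lower (blue, left) in 3 comparisons, with the shares over all genes tested as dashed lines. The TMX and isomerase list, with 14 of 20, has the largest share of the 6 called higher in Asxl1-/-Jak2V617F against Jak2V617F, and the centrosome list, with 9 and 8 of 31, lies near both dashed lines there.

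The 8 genes were compared with 10987 protein-coding genes of mean CPM 2 or more, by Pearson's r of log2 CPM over the 11 libraries, which share low levels in the 3 Jak2V617F libraries, so r is a description of that split. Between pairs of the 8 genes r was 0.941 to 0.996, with a median of 0.98 over 28 pairs. Over the 8 libraries that are not Jak2V617F, it was -0.437 to 0.963, with a median of 0.741 and 3 pairs below 0. Many genes were as close, and r was above 0.95 for 334 genes with Nin, the fewest, and for 975 with Rab3d, the most. The 3 genes nearest to Rab44 were Atrn, Ptpre and Srpk2, those nearest to Rab3d were Sun2, Galns and Irak3, and those nearest to Nin were Ttc21a, Cep128 and Atp11b. For Ikbke they were Acap2, Kif1b and Chd7, for Itih5 Cntln, Phkb and Abca2, and for Mcf2l Esr1, Tbc1d2 and Card9. For Tmx4 they were Nos1ap, Nav2 and Mgam, and for Rps6ka2 Cep55, Slc36a4 and Uap1l1. For these 24 genes r was 0.992 to 0.998 over 11 libraries and 0.633, for Phkb with Itih5, to 0.985, for Chd7 with Ikbke, over the 8. Chd7 was at 102 ± 14.8 CPM in Asxl1-/-Jak2V617F, 22.0 ± 5.20 CPM in Jak2V617F, 67.2 ± 5.12 CPM in Asxl1-/- and 102 ± 12.9 CPM in WT (SD, n = 3, 3, 2 and 3). Sun2 was at 800.0 ± 137 CPM, 115 ± 22.1 CPM, 898 ± 4.01 CPM and 878 ± 19.3 CPM in the same order, with the level in Asxl1-/- close to WT as in Rab3d.

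The nearest tested protein-coding gene on each side of the 8 genes, 16 in all, was looked up after the values of the 8 were known. Not all are close: Tagap lay 622.7 kb from Rps6ka2 and Bmp2 1031.3 kb from Tmx4. Some had very few reads, as F7 beside Mcf2l, with 0.0506 CPM in Jak2V617F. In Asxl1-/-Jak2V617F against Jak2V617F, 10 of the 16 were higher and 2 lower, where 24.5% of all genes tested were higher and 19.8% lower. In Jak2V617F against WT 10 were lower and 1 higher, where 29.2% of all genes were lower and 24.4% higher. In Asxl1-/-Jak2V617F against WT, their adjusted p in edgeR lay between 0.0607 and 0.992. Pygl, liver glycogen phosphorylase, 77.1 kb from Nin, was at 358 CPM in Asxl1-/-Jak2V617F, 56.7 CPM in Jak2V617F, 444 CPM in Asxl1-/- and 448 CPM in WT, and fell by 2.98 ± 0.23 in Jak2V617F against WT (edgeR adjusted p = 3.44e-06). On its other side, Sav1, a scaffold of the Hippo pathway, 24.4 kb from Nin, rose by 0.75 ± 0.12 in that comparison (edgeR adjusted p = 0.00033). Atp11a, a phospholipid flippase, 5.1 kb from Mcf2l, was at 116.5 CPM in Asxl1-/-Jak2V617F, 23.1 CPM in Jak2V617F, 62.0 CPM in Asxl1-/- and 118.9 CPM in WT. It fell by 2.36 ± 0.25 in Jak2V617F against WT (edgeR adjusted p = 3.51e-05). Plcb1, a phospholipase C, 141.9 kb from Tmx4, was low throughout, with 5.28 CPM in Asxl1-/-Jak2V617F, 0.312 CPM in Jak2V617F, 4.37 CPM in Asxl1-/- and 5.10 CPM in WT. Neither neighbour of Rab44 passed in these comparisons: Cdkn1a, an inhibitor of cyclin-dependent kinases 13.4 kb away, was at 17.1 CPM in Asxl1-/-Jak2V617F, 8.22 CPM in Jak2V617F and 7.30 CPM in WT.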

How the data were processed

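RNA-seq of 11 libraries of c-kit+ marrow cells was used; chromatin assays of the series were left out. The authors deposited raw read counts for each Ensembl gene. Tools named in the submitters' processing notes include HISAT2 2.0.5 and featureCounts 1.5.0-p3, with mm10 as genome. How strand and multi-mapped reads were treated, and the annotation release, were not given in the sources used here. Genes passed filterByExpr, TMM factors scaled the libraries, and the quasi-likelihood test of edgeR 4.0.16 in R 4.3.3 was fitted with a genotype factor over all libraries, which had a common biological coefficient of variation of 19.7%. Calls are Benjamini-Hochberg adjusted p under 0.05 over 16262 genes, errors are SD of CPM or SE of log2 differences, and scripts were tested on simulated data.

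Counts of replicates differed by more than sampling noise (chi-square per degree of freedom of 7.75 to 33.1), so each library was kept. No label says that replicates are separate animals. By Xist and Y-linked genes, Jak2V617F 2 was male and Jak2V617F 1 and 3 female, so that group did not come from a single animal. Within the other groups, and between Jak2V617F 1 and 3, the spread behind the p-values may be technical. The 8 genes, lists and tests were chosen with earlier results of these data known. Named beside the 8 genes are the 3 most correlated genes of each, up to 4 genes per list with the smallest adjusted p in Asxl1-/-Jak2V617F against Jak2V617F, the next 2 genes by interaction p, and Asxl1 and Jak2. Relatives and neighbours were named by family and position. Some genes that ranks take, and 1 pathway list, are not reported here. Jak2 was at 92.2 ± 5.64 CPM in Asxl1-/-Jak2V617F, 126 ± 3.94 CPM in Jak2V617F, 101 ± 2.22 CPM in Asxl1-/- and 77.0 ± 5.93 CPM in WT (SD, n = 3, 3, 2 and 3). Alternatives were DESeq2 1.42.0, median-of-ratios scaling, other filters, a replicate block, a sex term, fits of fewer groups and leaving out each library. Counts in lists of TMX and centrosome genes under these alternatives, and correlations without Jak2V617F, were chosen after seeing the data.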

Additional observations from a re-analysis of the deposited data

Results flagged for a closer look

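For all 24 genes named from the pathway lists, up to 4 per list, an interaction was called in the edgeR fit. By this call the effect of Asxl1 loss differed between the Jak2V617F and the WT background, as for 41.6% of all genes. Both Asxl1-/- libraries are male and all WT libraries female, so the interaction carries sex as well. The calls of these 24 genes were not repeated with a term for sex. Over all genes, that term left 3079 interaction calls, against 6764 without it. The 8 genes of the report are not among the 24, since that contrast chose them. Over the whole lists, interactions called above and below 0 were 9 and 3 of 31 Rab and secretion genes and 7 and 3 of 24 IKK and TBK1 genes. They were 14 and 4 of 31 centrosome genes, 5 and 1 of 12 hyaluronan genes, 13 and 1 of 20 isomerase genes, and 9 and 3 of 24 ERK genes. Over all genes tested the log2 interaction had a median of 0.0969 and quartiles of -0.496 and 0.968, so it leaned above 0 there too. The share of all genes called in each direction is not given here. The counts above and below 0 are therefore not read as a result about the lists. Log2 interactions above 0, meaning a more positive effect of Asxl1 loss on the Jak2V617F background, came from every list. In the Rab and secretion list they were 2.99 for Rab27a, 2.53 for Cracr2a, 1.74 for Rab32 and 2.47 for Sytl1. In the IKK and TBK1 list they were 2.55 for Tbkbp1, 1.06 for Tmem173 and 0.47 for Tank, and Relb had -2.18. The centrosome list gave 1.03 for Dctn1, 1.27 for Cep128 and 1.59 for Cntrl, and Ninl had -1.67. The hyaluronan list gave 0.38 for Cd44 and 2.71 for Stab1, and Hyal2 had -1.84. Ambp of the same list had a fitted value of 10.53, which depends on the prior count, since it had no read in Asxl1-/-, and it is no bound. The isomerase list gave 1.53 for Ero1l, 0.96 for Pdia6, 1.05 for Txndc12 and 1.01 for P4hb. The ERK list gave 1.65 for Rps6ka1, 1.54 for Spry2, 1.19 for Mapk3 and 0.83 for Dusp6. These genes were named by their difference between Asxl1-/-Jak2V617F and Jak2V617F, which is part of the interaction.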

How the results depend on the processing

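Of the 8 genes, 1 was called in Asxl1-/-Jak2V617F against WT, against 2 under DESeq2, 0 in a fit of both groups alone and 0 to 2 when each library was left out in turn. The log2 difference changed sign where it was near 0: -0.0884 for Ikbke without Asxl1-/-Jak2V617F 1 and -0.0352 without WT 1, 0.0439 for Rps6ka2 without Asxl1-/-Jak2V617F 3, and 0.0397 for Nin without WT 2. The ranges over all left-out libraries were -0.0884 to 0.1127, -0.1185 to 0.0439, and -0.0915 to 0.0397 in that order. Over all genes, a sex term left 3079 interaction calls (6764 without it), 502 for Asxl1-/- against WT (3664) and 52 for Asxl1-/-Jak2V617F against Asxl1-/- (899), for which DESeq2 gave 1467. The cause of these changes was not tested. Leaving out each library in turn gave 4483 to 7016 interaction calls, 531 to 3493 for Asxl1-/-Jak2V617F against WT, 288 to 4376 for Asxl1-/- against WT and 86 to 952 for Asxl1-/-Jak2V617F against Asxl1-/-. Counts moved by over 1.5 times without Asxl1-/- 1 (4483 interaction calls, 288 in Asxl1-/- against WT and 165 in Asxl1-/-Jak2V617F against Asxl1-/-) and without Asxl1-/- 2 (1407 and 86 in the last 2). In Asxl1-/-Jak2V617F against WT they fell to 1116 and 842 without Asxl1-/-Jak2V617F 1 and 2, and to 531 and 665 without WT 2 and 3. The same libraries gave 526 and 359 calls in Asxl1-/-Jak2V617F against Asxl1-/-, and 1929 and 2182 in Asxl1-/- against WT. Calls in Asxl1-/-Jak2V617F against Jak2V617F (5839 to 7367), Jak2V617F against WT (7408 to 8942) and the pathway lists (70 to 79) stayed within 1.5 times. Where 1 Asxl1-/- library was left out, the remaining one was assumed to vary like the other groups. Of 15 pairs of libraries with the same replicate number 4 had deviations correlated above 0.1, and 7 of 30 others. Deviations from the mean of a small group are tied to each other, so these counts cannot decide whether replicate numbers pair the samples. With the replicate block 2 of the 8 genes were called (Rab44 and Mcf2l) and 585 genes in Asxl1-/-Jak2V617F against Asxl1-/-. Depth limits Mcf2l most, with 2.39 CPM in Jak2V617F.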
